A study of Danio rerio with 12 samples.

Results

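This is an account of the response to silver nitrate and silver nanoparticles, taken as the average over both, in whole zebrafish larvae. All 12 arrays of the study were used. For each feature (a gene, or a probe without a gene name) the AgNO3 mean and the AgNPs mean of the log2 ratio to control were averaged, and the average was tested against 0. Of 25264 features tested, 15 passed, and the AgNO3 mean and the AgNPs mean had the same sign in all 15. Equal signs are likely in features chosen by the average of these same means, so they are a description only. Of all 14329 named genes tested, both means were below 0 in 3758 and above 0 in 3804. Of the 15 that passed, 12 were named genes and 3 were probes without a gene name.

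The 6 AgNO3 samples were larvae kept in water with silver nitrate (AgNO3), a soluble salt, and the 6 AgNPs samples were larvae kept with silver nanoparticles (AgNPs), both at 0.01 mg/L. The control samples came from larvae in conditioned water with methylene blue. Per the labels, all fish were wild type of strain AB, raised in dishes and moved at an equal number per group into 1 L tanks, and exposed from 6 days post fertilization for 15 days, so that they were 21 days old. Particle size, coating, measured silver levels, the number of tanks, the number of larvae pooled in a sample and the time of day at sampling are missing from the sources used here. The p-values therefore measure only the spread between these samples, which may be technical. Each array set RNA of a silver sample against RNA of a control sample in 2 dyes, Cy3 and Cy5, and in each group 3 arrays carried the silver RNA in Cy5 and 3 in Cy3. The codes that the labels give each array were read as codes of a control and a silver sample, which is an assumption. By that reading there were 6 control samples, and each one went onto 1 AgNO3 array and 1 AgNPs array. The AgNO3 and the AgNPs values would then share their controls, and all statements below on control samples rest on this reading.

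As background, most of the named genes that passed belong to the circadian clock or to photoreceptors. The circadian clock is a loop in which the activators Bmal and Clock switch on their own repressors (Per, Cry, Rev-erb, Dec and Ciart) and output factors such as Dbp, and in zebrafish it runs in most tissues and is set by light. In photoreceptors of the retina, light-activated opsins switch on transducin and phosphodiesterase 6, which lowers cyclic GMP, and guanylate cyclase with its activating proteins restores it. Of the others, slc15a1b is a gene of enterocytes, which carry peptidases and nutrient carriers on their brush border. Angiotensin-converting enzyme, encoded by ace, is a peptidase best known for making the hormone angiotensin II. Which cells the ace RNA came from cannot be told in whole larvae.

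The values are log ratios, taken as log2 of silver over control, so that a negative value means lower in silver. That direction is likely but not settled, being based on the common habit of dividing Cy5 by Cy3 where silver RNA was in Cy5, and with the other order every sign given here turns, rises become falls, and each share or fold of control below becomes its inverse. The values were used as if the dye-swapped arrays had been turned the same way before deposit, which the sources used here do not state. With the arrays of silver RNA in Cy3 turned, 60 features passed in limma and none of the 15 was among them, so all calls below hold only for the values as deposited. If the swapped arrays were not turned before deposit, the average would measure a difference between the dyes. The response to silver would then lie in the term for dye orientation. Which of these applies was not tested. A term for dye orientation in the same model passed for 72 features (0.285% of those tested), and none of the 15 was among these. For a feature with a value on every array this term equals the turned average (-0.159 for ace by both). The turned fit and the orientation term are therefore not separate checks. Of the 72, 10 were ribosomal protein genes and 5 were gamma crystallin genes, and 54 were among the 60. Arrays of silver RNA in Cy3 gave values of up to 6 significant digits, and arrays of silver RNA in Cy5 values of up to 10. Log ratios were spread unequally: their interquartile range was 0.216 to 0.342 in AgNO3, but in AgNPs it was 0.293 and 0.233 on replicates 1 and 2 and only 0.0946 to 0.116 on replicates 3 to 6. Empty values made up 6.97% to 10.9% per array, and signal over background is unknown.

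**Figure D1:**
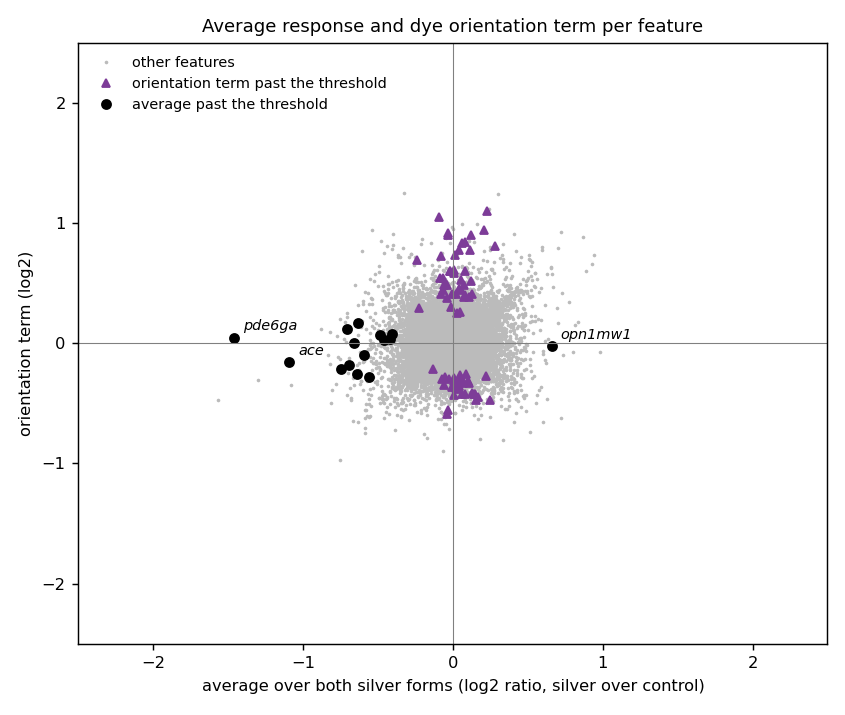
Each point is a tested feature, with the average of the AgNO3 and AgNPs mean log2 ratios on the horizontal axis and the dye orientation term of the same model on the vertical axis, both in log2 units. The 15 features past the threshold in the average (black circles) and the 72 past it in the orientation term (triangles) have none in common.

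The average over both silver forms asks which transcripts differed from control in the mean of both. A change with 1 form alone can carry it, so a call does not show a response to each form. Of the 15 features that passed limma's moderated test at a Benjamini-Hochberg adjusted p under 0.05 (0.0594% of those tested), 14 fell (0.0554%) and 1 rose (0.00396%). The 12 named genes were 0.0837% of the 14329 named genes tested. They were the peptidase gene ace, the clock genes ciarta, dbpa, bhlhe41 and nr1d1, the photoreceptor genes opn1mw1, guca1c and pde6ga, the peptide carrier gene slc15a1b, the metabolic gene tdh, the granulin gene grna.2 and the non-coding RNA gene si:ch73-52f24.4. Without adjustment, p was under 0.05 for 1692 features (6.7%), 914 of them lower (3.62%) and 778 higher (3.08%), where 1263.2 would be reached if nothing changed. Taken alone in the same model, AgNO3 gave 3 features (0.0119%) and AgNPs 6 (0.0237%).

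As a description only, since the 15 were chosen by the average of these same values, the sign was the same on all 12 arrays for 14 of them and on 11 for grna.2. Over all features, of 17584 features with a value on every array, 88 had 1 sign throughout (0.5%): 49 were below 0 on all 12 (0.279%) and 39 above it on all 12 (0.222%). When the AgNO3 and AgNPs arrays of each control sample were first averaged to 6 values, no feature passed in limma (smallest adjusted p = 0.0557, for ace), and 1505 features (5.96%) had an unadjusted p under 0.05. With all 12 arrays and the control sample as a random block, 14 features passed in limma, all among the 15. Without AgNPs replicates 3 to 6, the arrays of narrow spread, 13 features passed in limma, of which only ace, opn1mw1 and bhlhe41 were among the 15. All 15 kept their sign there with an unadjusted p under 0.05, where 1517 of all features (6%) were under it. That setting leaves AgNPs only replicates 1 and 2, both with silver RNA in Cy5, and shares its arrays with the main fit. The stricter demand that each silver form pass alone, by the larger of its p-values, was met by no feature (smallest adjusted p = 0.104 in limma), with 175 features (0.693%) at an unadjusted p under 0.05.

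**Figure D2:**
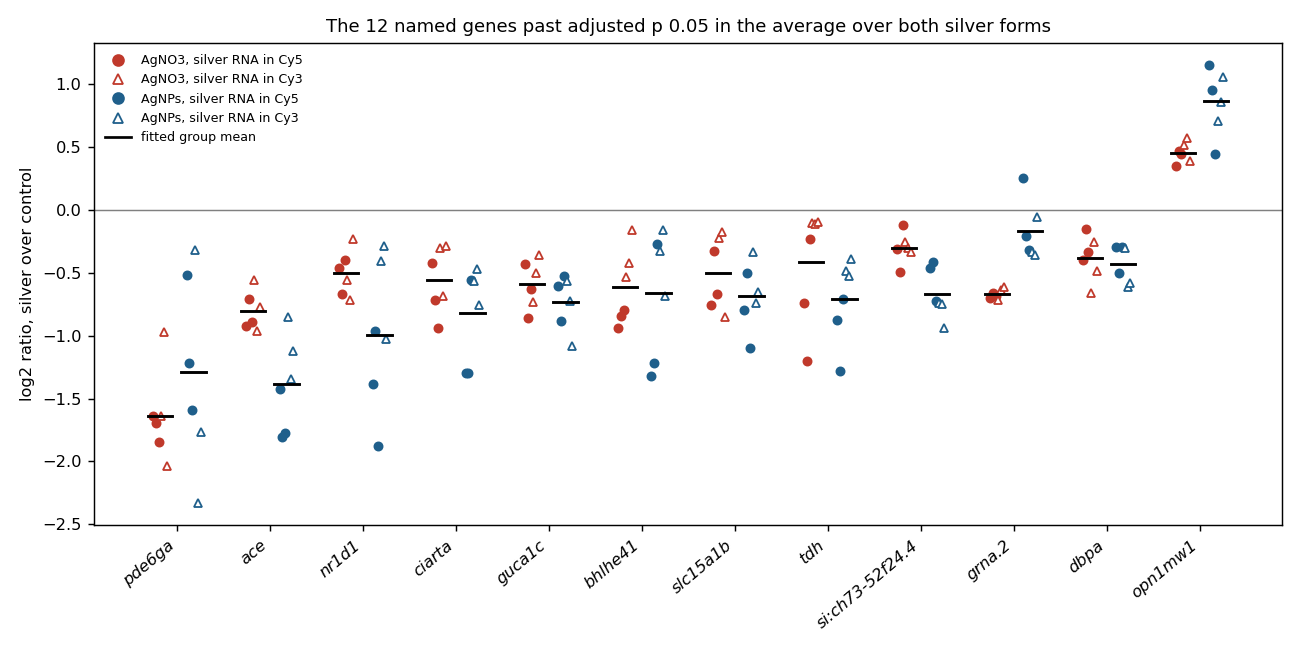
Log2 ratio of silver over control on each array for the 12 named genes past the threshold, AgNO3 left of AgNPs, with circles for silver RNA in Cy5, triangles for silver RNA in Cy3 and bars for the fitted group means. All points lie below 0 for 10 genes and above 0 for opn1mw1, and 1 AgNPs point of grna.2 lies above 0.

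The most marked fall by p-value was that of ace, the angiotensin-converting enzyme gene. Its log2 ratio had a lowest, median and highest value of -0.96, -0.83 and -0.56 on the AgNO3 arrays and of -1.80, -1.38 and -0.85 on the AgNPs arrays. It was below 0 on every array, and of the AgNPs arrays only the highest lay within the range of the AgNO3 arrays. Averaged over both forms, ace fell by 1.09 in log2 units (SE 0.07, n = 12 arrays, limma adjusted p = 0.000145), which puts silver-exposed larvae at 46.9% of control, or at 2.13-fold if the ratio runs the other way. Each of its 3 probes was lower, the weakest by -0.87 and the strongest by -1.31. The means of the arrays that share a control sample lay between -1.38 and -0.89. Leaving out any 1 array kept the average between -1.14 and -1.06 and the adjusted p at 0.00129 or lower. The samples were whole larvae, so fewer cells of a type and less RNA per cell cannot be told apart, here or for the genes below.

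The renin-angiotensin list held 9 tested genes, of which 6 were lower and 3 higher. Of all named genes tested, 48.9% averaged above 0, the share to set beside such splits here and below. With an unadjusted p under 0.05, 3 were lower and 0 higher, where 4.31% and 3.93% of all named genes were lower and higher by that measure. The median average of the list was -0.03, against 0.00 over all named genes (-0.0026 before rounding). Besides ace, the members below that p were agt, which encodes angiotensinogen, the precursor of the hormone, and enpep, which encodes aminopeptidase A, an enzyme that trims angiotensin II. The average was -0.27 (SE 0.07, limma adjusted p = 0.357) for agt and -0.27 (SE 0.09, limma adjusted p = 0.509) for enpep, each below 0 on 10 of 12 arrays. Neither passed, so within this list the fall rests on ace.

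Among clock genes, 4 repressors and output factors fell with silver and the activator bmal1a was higher on every array without passing. The time of day at sampling is missing, so its part in the clock values cannot be told apart from that of silver. The gene ciarta encodes a repressor that binds Bmal proteins. On the AgNO3 arrays its lowest, median and highest log2 ratios were -0.94, -0.55 and -0.29, and on the AgNPs arrays -1.30, -0.66 and -0.47. The groups overlapped over most of their range, and no array reached 0. Its average fell by 0.69 (SE 0.08, limma adjusted p = 0.00945), to 61.9% of control, with both probes lower, and the call was kept with any 1 array left out. Means by orientation were -0.87 with silver RNA in Cy5 and -0.51 with silver RNA in Cy3.

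The output factor gene dbpa, a D-box binding activator that clock activators switch on, changed by less but evenly. Its lowest, median and highest log2 ratios were -0.66, -0.37 and -0.15 with AgNO3 and -0.61, -0.40 and -0.29 with AgNPs, so the groups were nearly alike in range. In the average dbpa fell by 0.41 (SE 0.05, limma adjusted p = 0.0108), to 75.5% of control, with all 3 probes lower, by between -0.68 and -0.25. Means of dbpa by orientation were -0.33 with silver RNA in Cy5 and -0.48 with silver RNA in Cy3. Without AgNO3 replicate 1 its average was -0.40 (limma adjusted p = 0.0543), and without AgNPs replicate 5 it was -0.39 (limma adjusted p = 0.0533), which end the call.

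The gene bhlhe41 encodes Dec2, a repressor that competes at the sites of the clock activators. Its log2 ratios were -0.94, -0.67 and -0.16 (lowest, median and highest) with AgNO3 and -1.32, -0.51 and -0.16 with AgNPs. All were below 0, over a wide range in both groups. Its average fell by 0.64 (SE 0.09, limma adjusted p = 0.0287), with its 3 probes between -0.86 and -0.24. By dye orientation the means were -0.90 with silver RNA in Cy5 and -0.38 with silver RNA in Cy3, and the part of the dye in this was not tested further. The call was lost in 11 of the 12 settings that leave out 1 array, all but that without AgNPs replicate 3, at averages between -0.67 and -0.60 and a limma adjusted p of up to 0.102.

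The gene nr1d1 encodes Rev-erb alpha, a nuclear receptor that represses the bmal genes. Its log2 ratios were -0.72, -0.51 and -0.23 (lowest, median and highest) with AgNO3 and -1.88, -0.995 and -0.29 with AgNPs. Every array was below 0, and the AgNPs arrays reached lower than any AgNO3 array. Averaged, nr1d1 fell by 0.75 (SE 0.11, limma adjusted p = 0.0460), to 59.5% of control, with both probes lower. By orientation its means were -0.96 with silver RNA in Cy5 and -0.54 with silver RNA in Cy3. The call was lost whichever single array was left out, with averages between -0.80 and -0.67 and limma adjusted p-values of 0.0547 to 0.128, so nr1d1 stands at the threshold.

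Other clock genes did not pass. The activator gene bmal1a had log2 ratios of 0.36, 0.90 and 1.43 (lowest, median and highest) with AgNO3 and of 0.44, 1.04 and 2.14 with AgNPs. It was above 0 on all 12 arrays and averaged 0.98 (SE 0.15), 1.97-fold of control, with a limma adjusted p of 0.0511 and a single probe. The cryptochrome gene cry2, a repressor, averaged -0.71 (SE 0.11, limma adjusted p = 0.0509), with values of -0.91 to 0.22 under AgNO3 and of -1.33 to -0.58 under AgNPs. It was below 0 on 10 of 12 arrays, the others being AgNO3 arrays. The period gene per1b, also a repressor, averaged -0.55 (SE 0.13, limma adjusted p = 0.262) and was below 0 on 11 of 12 arrays. The second bmal gene, bmal1b, averaged 0.47 (SE 0.12, limma adjusted p = 0.289), above 0 on 11 of 12 arrays, with means of 0.75 for silver RNA in Cy5 and 0.19 for silver RNA in Cy3.

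**Figure D3:**
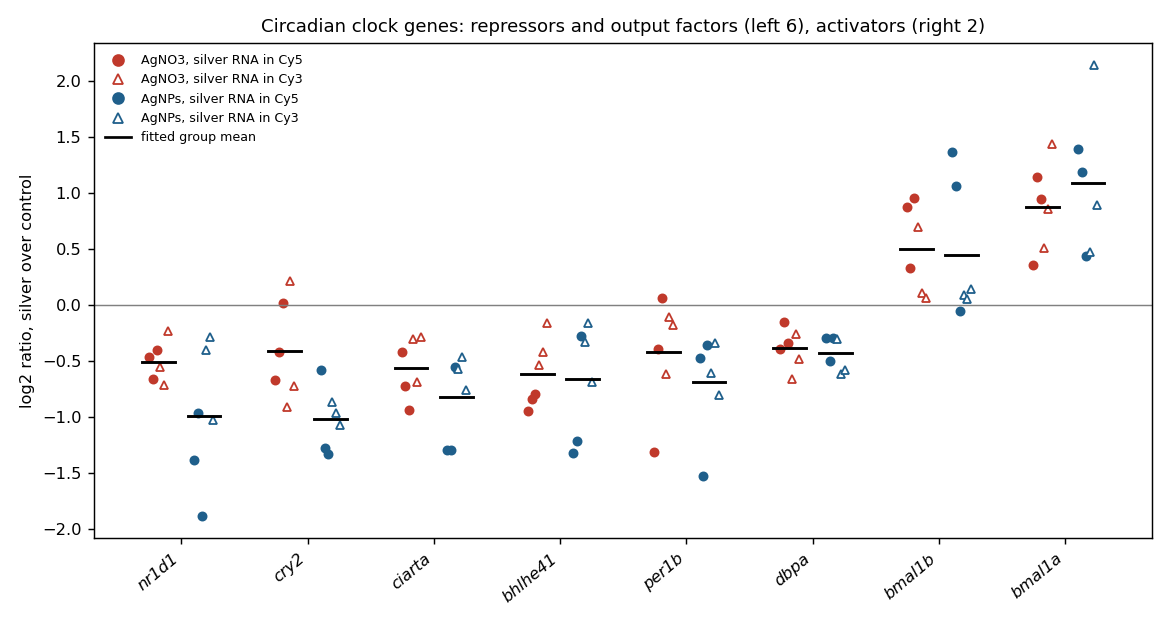
Log2 ratio of silver over control on each array for 6 clock repressor or output genes and for the activators bmal1b and bmal1a, AgNO3 left of AgNPs, with bars for the fitted group means. The points of nr1d1, ciarta, bhlhe41 and dbpa all lie below 0 and those of bmal1a all above it.

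Over the list of clock repressors and output factors, 20 of 23 tested genes were lower and 3 higher, with a median of -0.19. At an unadjusted p under 0.05 there were 9 lower (39.1% of the list, against 4.31% of all named genes) and 2 higher (8.7%, against 3.93%). The 9 include the 4 that passed. Gene lists here were chosen with earlier results of these data known, so such shares are a description and not a test. Averaged over its genes, the repressor and output list lay below 0 on all 12 arrays. Its mean ran from -0.35 to -0.01 with AgNO3 and from -0.58 to -0.14 with AgNPs. By dye orientation it was -0.31 with silver RNA in Cy5 and -0.14 with silver RNA in Cy3. The 2 higher members were cry3b, with an average of 0.31 (SE 0.07), and cry3a, with 0.45 (SE 0.12), cryptochrome genes that were named after their values were seen and did not pass. Of the list of clock activators, 6 of 9 tested genes were higher and 3 lower, with a median of 0.10, and 4 were higher (44.4%) and 0 lower at an unadjusted p under 0.05. Its mean was above 0 on all 12 arrays. Beside the bmal genes these were nfil3-5, a D-box binding repressor of clock output grouped here by its phase, at 0.39 (SE 0.11), and rorab, a nuclear receptor that activates bmal genes, at 0.10. For nfil3-5 the mean was 0.81 with silver RNA in Cy5 and -0.04 with silver RNA in Cy3, and 0.11 in AgNO3, with 3 of 6 arrays below 0, against 0.66 in AgNPs. The list median was 0.11 in AgNO3 and 0.00 in AgNPs. With the swapped arrays turned, the repressor list had 17 genes lower and 6 higher and the activator list 4 higher and 5 lower.

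Of photoreceptor genes, measured in RNA of whole larvae, a cone opsin gene rose while a cyclase activator gene and a phosphodiesterase subunit gene fell. The gene opn1mw1 encodes a green cone opsin, the light receptor of cones for middle wavelengths. Its lowest, median and highest log2 ratios were 0.35, 0.46 and 0.57 with AgNO3 and 0.45, 0.90 and 1.15 with AgNPs. All AgNO3 values lay in a narrow band, and 5 of the 6 AgNPs values were above it. The average rose by 0.66 (SE 0.06, limma adjusted p = 0.00307), 1.58-fold of control, the only one of the 15 that rose, and both probes were higher. It kept its call with any 1 array left out, at averages of 0.62 to 0.70.

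The gene guca1c encodes a guanylate cyclase activating protein of cones, which helps restore cyclic GMP after light. It had log2 ratios of -0.86, -0.57 and -0.36 (lowest, median and highest) with AgNO3 and of -1.08, -0.66 and -0.53 with AgNPs. The groups overlapped, with 3 AgNO3 arrays above every AgNPs array and no array at or above 0. Its average fell by 0.66 (SE 0.06, limma adjusted p = 0.00391), to 63.4% of control, with both probes near the same value (-0.68 and -0.63), and the call was kept with any 1 array left out. The dye orientations gave -0.66 each.

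The change of largest size among the 15 was that of pde6ga, which encodes the inhibitory gamma subunit of the photoreceptor phosphodiesterase, measured by 1 probe. Its lowest, median and highest log2 ratios were -2.03, -1.67 and -0.97 with AgNO3 and -2.33, -1.40 and -0.32 with AgNPs. The AgNPs values spread widely and covered those of AgNO3. Averaged, pde6ga fell by 1.46 (SE 0.17, limma adjusted p = 0.0108), to 36.2% of control, or 2.76-fold if the ratio runs the other way. Without AgNO3 replicate 1 the average was -1.46 and the limma adjusted p 0.0555, which ends the call.

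The red cone opsin gene opn1lw2 had log2 ratios of 0.24, 0.39 and 0.64 (lowest, median and highest) with AgNO3 and of 0.69, 0.93 and 2.81 with AgNPs. It was above 0 on all 12 arrays and higher on every AgNPs array than on any AgNO3 array, and AgNPs replicate 6 stood far above the rest. Its average of 0.80 (SE 0.16) did not pass (limma adjusted p = 0.161). Of 10 opsin genes tested, 9 were higher and 1 lower, with a median of 0.14, and the list mean was above 0 on all 12 arrays. At an unadjusted p under 0.05 there were 4 higher (40% of the list) and 0 lower. Besides the genes named, these were the blue cone opsin gene opn1sw2 at 0.44 (SE 0.13), whose mean was 0.87 with silver RNA in Cy5 and 0.01 with silver RNA in Cy3, and rhol, a rhodopsin-like gene, at 0.10 (SE 0.03). The rod opsin gene rho was not among the features tested.

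The other phototransduction genes went both ways. Of 36 tested, 22 were higher and 14 lower, with a median of 0.05. At an unadjusted p under 0.05, 9 were higher (25%) and 5 lower (13.9%), and only guca1c and pde6ga passed the adjustment. Among members of low p, gngt1, a transducin gamma subunit gene, averaged 0.33 (SE 0.06), with 0.02 for silver RNA in Cy5 and 0.64 for silver RNA in Cy3. The potassium channel subunit gene kcnv2b averaged 0.38 (SE 0.08), with 0.62 in AgNO3 and 0.13 in AgNPs. The mean over this list was below 0 on 6 arrays and above it on 6. In the retinoid cycle, which remakes the light-sensitive pigment, 11 of 21 genes were higher and 10 lower, and rbp3, the retinoid carrier of the photoreceptor matrix, averaged 0.25 (SE 0.05, limma adjusted p = 0.129). The lens, the other eye tissue on the lists, had 40 of 57 genes higher. At an unadjusted p under 0.05, 2 were higher (3.51%, against 3.93% of all named genes) and 0 lower. Its list mean was above 0 on 5 arrays and below it on 7. The part of these lens values in the retinal results was not tested.

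Of the enterocyte genes tested, slc15a1b alone passed. It encodes the peptide carrier Pept1 of the enterocyte brush border. Its log2 ratios were -0.86, -0.50 and -0.18 (lowest, median and highest) with AgNO3 and -1.10, -0.69 and -0.33 with AgNPs. All arrays were below 0 and the groups overlapped. The average fell by 0.59 (SE 0.08, limma adjusted p = 0.0211), to 66.3% of control, by 1 probe. Its call was lost without AgNO3 replicate 1 or 3 or AgNPs replicate 1, 3, 5 or 6, each alone, at averages of -0.59 to -0.56 and a limma adjusted p of up to 0.0817.

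Outside the threshold, anpepb.1, an aminopeptidase gene of the brush border, averaged -0.50 (SE 0.08, limma adjusted p = 0.0511). The sodium-glucose carrier gene slc5a1 averaged -0.34 (SE 0.06, limma adjusted p = 0.0853), with -0.87 on AgNPs replicate 2 and -0.39 to -0.18 on the other AgNPs arrays. Both were below 0 on all 12 arrays. The enterocyte list as a whole was mixed: of 26 genes tested, 15 were lower and 11 higher, with a median of -0.03, and 8 were lower (30.8%) and 5 higher (19.2%) at an unadjusted p under 0.05. The gut-defining genes fabp2, for a fatty acid binding protein, and vil1, for villin of the brush border core, averaged 0.07 and 0.00 and were each below 0 on 6 of 12 arrays.

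Of the remaining named genes, tdh encodes threonine dehydrogenase, which starts the breakdown of threonine to glycine. Its log2 ratios were -1.20, -0.17 and -0.09 (lowest, median and highest) with AgNO3 and -1.28, -0.62 and -0.39 with AgNPs. All were below 0, and 4 of the AgNO3 arrays were close to it. In the average tdh fell by 0.56 (SE 0.08, limma adjusted p = 0.0287), and all 4 probes were lower. Means by orientation were -0.84 with silver RNA in Cy5 and -0.28 with silver RNA in Cy3. The call was lost in 10 of the 12 settings that leave out 1 array (all but those without AgNO3 replicate 2 or 3), at averages of -0.59 to -0.53 and a limma adjusted p of up to 0.102.

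The gene grna.2 encodes a granulin, one of a family of secreted growth factor precursors. Its log2 ratios were -0.71, -0.67 and -0.61 (lowest, median and highest) with AgNO3 and -0.36, -0.27 and 0.26 with AgNPs. The groups did not overlap, and 1 AgNPs array was above 0. The average fell by 0.42 (SE 0.05, limma adjusted p = 0.0200), most of it from AgNO3, whose mean was -0.67 against -0.17 for AgNPs. It kept its call without AgNO3 replicate 5 or AgNPs replicate 1 or 6 and lost it in the other 9 such settings, at averages of -0.43 to -0.40 and a limma adjusted p of up to 0.0696. The list of 6 granulin genes had 4 lower and 2 higher, and only grna.2 had an unadjusted p under 0.05.

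The gene si:ch73-52f24.4 is annotated as a long non-coding RNA in RefSeq. Its log2 ratios were -0.49, -0.31 and -0.12 (lowest, median and highest) with AgNO3 and -0.94, -0.73 and -0.41 with AgNPs. The AgNPs arrays were lower than nearly all AgNO3 arrays. The average fell by 0.49 (SE 0.05, limma adjusted p = 0.00413), with both probes lower, and kept its call with any 1 array left out. It lost the call when arrays were scaled to a common spread. The 3 probes without a gene name fell too: A_15_P760451 by 0.46 (limma adjusted p = 0.00721), A_15_P378415 by 0.64 (limma adjusted p = 0.0200) and A_15_P753176 by 0.71 (limma adjusted p = 0.0215). With 1 array left out, A_15_P760451 kept its call in 12 of 12 settings, A_15_P378415 in 5 and A_15_P753176 in 3. The last stood at -0.27 in AgNO3, where its unadjusted p in limma was 0.0612, and at -1.15 in AgNPs.

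The difference AgNO3 minus AgNPs asks whether a gene moved by the same amount with both forms. No feature passed (0%, smallest adjusted p = 0.858 in limma), and 1066 features (4.22%) had an unadjusted p under 0.05. Among the genes that fell, 95% intervals of the difference lay above 0, that is weaker in AgNO3, for ace at 0.59 (0.29 to 0.88), si:ch73-52f24.4 at 0.37 (0.16 to 0.58) and nr1d1 at 0.49 (0.01 to 0.96). For grna.2 the interval lay below 0, stronger in AgNO3, at -0.50 (-0.73 to -0.27). For opn1mw1, which rose, the difference was -0.41 (-0.66 to -0.15), the smaller rise being in AgNO3. The probes without a gene name also had intervals without 0. The difference was 0.88 (0.47 to 1.28) for A_15_P753176, weaker in AgNO3. It was -0.42 (-0.77 to -0.07) for A_15_P378415 and -0.21 (-0.43 to -0.0009) for A_15_P760451, both stronger in AgNO3. These intervals are not adjusted for the number of features, and by the reading of the array codes both groups share control samples.

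For the other named genes the interval of the difference held 0. It was narrowest for dbpa, at 0.05 (-0.16 to 0.25), and widest for pde6ga, at -0.35 (-1.09 to 0.40). It ran from -0.13 to 0.41 for guca1c, from -0.07 to 0.60 for ciarta, from -0.15 to 0.52 for slc15a1b, from -0.04 to 0.63 for tdh and from -0.34 to 0.43 for bhlhe41. Intervals of this width do not show that the 2 forms acted alike.

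**Figure D4:**
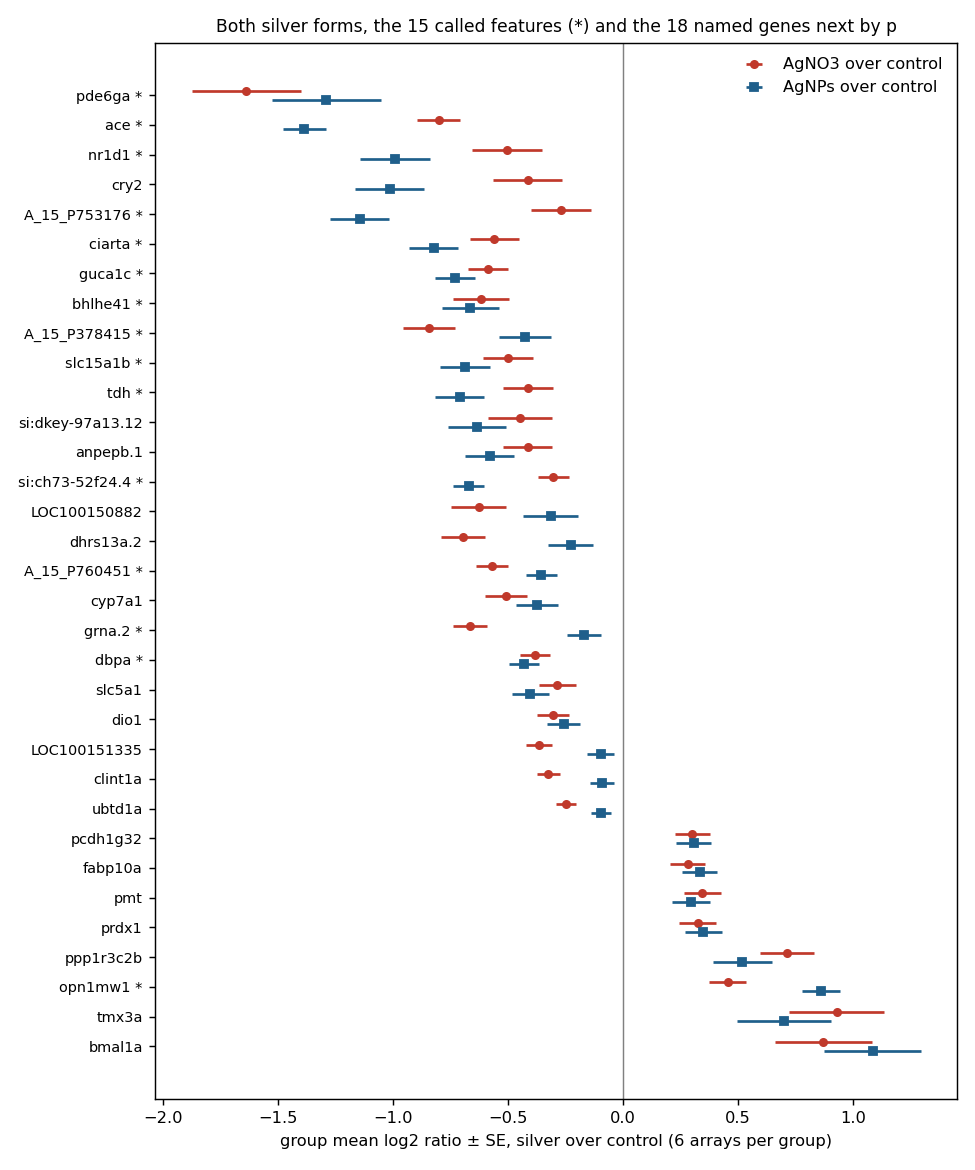
Fitted mean log2 ratio of silver over control with its SE for AgNO3 (circles) and AgNPs (squares), 6 arrays each, for the 15 features past the threshold in the average (marked *) and the 18 named genes next by p. In every feature shown both means lie on the same side of 0, for ppp1r3c2b in AgNPs through 2 of 5 arrays.

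The 18 named genes next by p had limma adjusted p-values of 0.0508 to 0.127 in the average and are given as values only. The first of them, cyp7a1, encodes the rate-limiting enzyme of bile acid synthesis and stood at -0.44 (SE 0.06), below 0 on all 12 arrays, with its probes between -0.94 and -0.19. On the higher side, ppp1r3c2b, whose product brings protein phosphatase 1 to glycogen, averaged 0.62 (SE 0.09) and tmx3a, a thioredoxin-related membrane protein, 0.81 (SE 0.15). In AgNPs, ppp1r3c2b had 5 values, 1.18 and 1.1 on 2 arrays and between -0.004 and 0.003 on the other 3, so its AgNPs mean rests on 2 arrays. The peroxiredoxin gene prdx1, whose product removes peroxides, averaged 0.34 (SE 0.06), with 0.33 in AgNO3 and 0.35 in AgNPs. Nearly the same average, 0.31 (SE 0.05), was seen for fabp10a, the liver fatty acid binding protein gene.

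Lower values included dio1, a deiodinase gene that acts on thyroid hormones, at -0.28 (SE 0.05). The average was -0.46 (SE 0.07) for dhrs13a.2, a dehydrogenase gene, and -0.21 (SE 0.04) for clint1a, a clathrin interactor gene. Both had the larger size in AgNO3, at -0.70 against -0.23 in AgNPs for dhrs13a.2, and at -0.32 against -0.09 for clint1a. The rest of the 18 were cry2, bmal1a, anpepb.1 and slc5a1, given above, pcdh1g32 at 0.30, pmt at 0.32, si:dkey-97a13.12 at -0.54, LOC100150882 at -0.47, LOC100151335 at -0.23 and ubtd1a at -0.17.

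Genes that commonly respond to metals and oxidative stress showed no member past the threshold. Of 14 metallothionein and copper genes, 9 were higher and 5 lower, and 0 had an unadjusted p under 0.05 in either direction. The metal-binding metallothionein gene mt2 had log2 ratios of -0.32, -0.09 and 0.32 (lowest, median and highest) with AgNO3 and of 0.10, 0.22 and 0.39 with AgNPs. It averaged 0.09 (SE 0.05, limma adjusted p = 0.806), above 0 on all AgNPs arrays but on only some AgNO3 arrays. Of 50 genes of the Nrf2 response and glutathione metabolism, 32 were higher and 18 lower, with a median of 0.05, and 5 were higher (10%) and 1 lower (2%) at an unadjusted p under 0.05. These higher members were led by prdx1, given above, and by gstt1b, a glutathione transferase gene, at 0.21 (SE 0.06), with -0.01 in AgNO3 and 0.43 in AgNPs. The heme oxygenase gene hmox1a averaged -0.12 (SE 0.12). Zinc transporters had 14 of 19 genes lower, 1 of them (5.26%) at an unadjusted p under 0.05. Iron genes had 10 of 18 higher, 1 (5.56%) at that p, and 2 lower (11.1%) at it. Of all named genes, 4.31% were lower and 3.93% higher by that measure.

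Protein quality control genes were mostly below 0, again with no member past the threshold. Of 44 proteasome subunit genes 36 were lower and 8 higher, with a median of -0.08, and 10 were lower (22.7%) and 1 higher (2.27%) at an unadjusted p under 0.05. With arrays scaled to a common spread the split was 29 lower and 15 higher. Subunit genes of lowest p were psmb4 at -0.23, psmb10 at -0.27, psmc2 at -0.17 and psmc3 at -0.12. Of these, psmc2 stood at -0.34 in AgNO3 and -0.01 in AgNPs, and psmb4 at -0.37 in AgNO3 and -0.09 in AgNPs. The list median was -0.09 in AgNO3 and -0.04 in AgNPs. By orientation the list mean was -0.14 with silver RNA in Cy5 and -0.03 with silver RNA in Cy3. In the same order, psmc2 stood at 0.04 and -0.39, psmc3 at -0.28 and 0.03, psmb4 at -0.40 and -0.06, and psmb10 at -0.22 and -0.32. Of 39 genes of the unfolded protein response, 27 were lower and 12 higher, and 9 were lower (23.1%) and 2 higher (5.13%) at an unadjusted p under 0.05. Their median was -0.11 in AgNO3 but 0.01 in AgNPs. The chaperone gene hspa5 (BiP) averaged -0.16 (SE 0.04, limma adjusted p = 0.338), with opposite signs of -0.40 in AgNO3 and 0.09 in AgNPs. Heat shock genes had 24 of 39 lower, 3 lower (7.69%) and 2 higher (5.13%) at that p, and the inducible chaperone gene hsp70.3 averaged -0.18 (SE 0.16).

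Innate immune genes had 28 of 35 lower and 7 higher, with a median of -0.11 (-0.13 in AgNO3 and -0.03 in AgNPs), and 7 were lower (20%) and 0 higher at an unadjusted p under 0.05. The cysteine protease gene ctss2.1 stood at -0.32, the list member irg1l at -0.37, the prostaglandin synthase gene ptgs2b at -0.25 and the macrophage perforin gene mpeg1.1 at -0.19. For ctss2.1 and mpeg1.1 the AgNPs means were 0.03 each, so the average came from AgNO3. The complement list had 14 of 24 genes lower and none below that p. Of 23 glucocorticoid response genes 17 were lower, 3 of them (13%) at an unadjusted p under 0.05, with a list median of -0.10 in AgNO3 and 0.02 in AgNPs, and the co-chaperone gene fkbp5 averaged -0.28 (SE 0.15), with -0.58 in AgNO3 and 0.03 in AgNPs.

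On the higher side stood genes of DNA replication, cartilage and fat use. Of 44 cell cycle genes 35 were higher and 9 lower, with a median of 0.10, and 14 were higher (31.8%) and 0 lower at an unadjusted p under 0.05. The clamp loader gene rfc4 averaged 0.33 (SE 0.07, limma adjusted p = 0.172), with 0.20 in AgNO3 and 0.46 in AgNPs. For the polymerase gene pold1 the average was 0.18 (SE 0.05), with 0.04 in AgNO3 and 0.33 in AgNPs. The list member cdca7a averaged 0.29, with 0.02 in AgNO3 and 0.55 in AgNPs, so for pold1 and cdca7a the average came mostly from AgNPs. The helicase gene mcm7 averaged 0.24 (SE 0.07) and was above 0 on all 12 arrays. The list median was 0.02 in AgNO3 and 0.17 in AgNPs. Cartilage and matrix genes had 30 of 41 higher, 9 of them (22%) and 0 lower at that p, led by the chondromodulin gene cnmd at 0.26, the cartilage matrix gene matn1 at 0.23, the fin fold gene and4 at 0.25 and ucmab at 0.24. With the swapped arrays turned, this list had 15 genes higher and 26 lower. Of 34 fatty acid oxidation genes 23 were higher, 4 of them (11.8%) at an unadjusted p under 0.05, and cpt1b, which brings fatty acids into mitochondria, averaged 0.49 with all of its 11 values above 0.

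**Figure D5:**
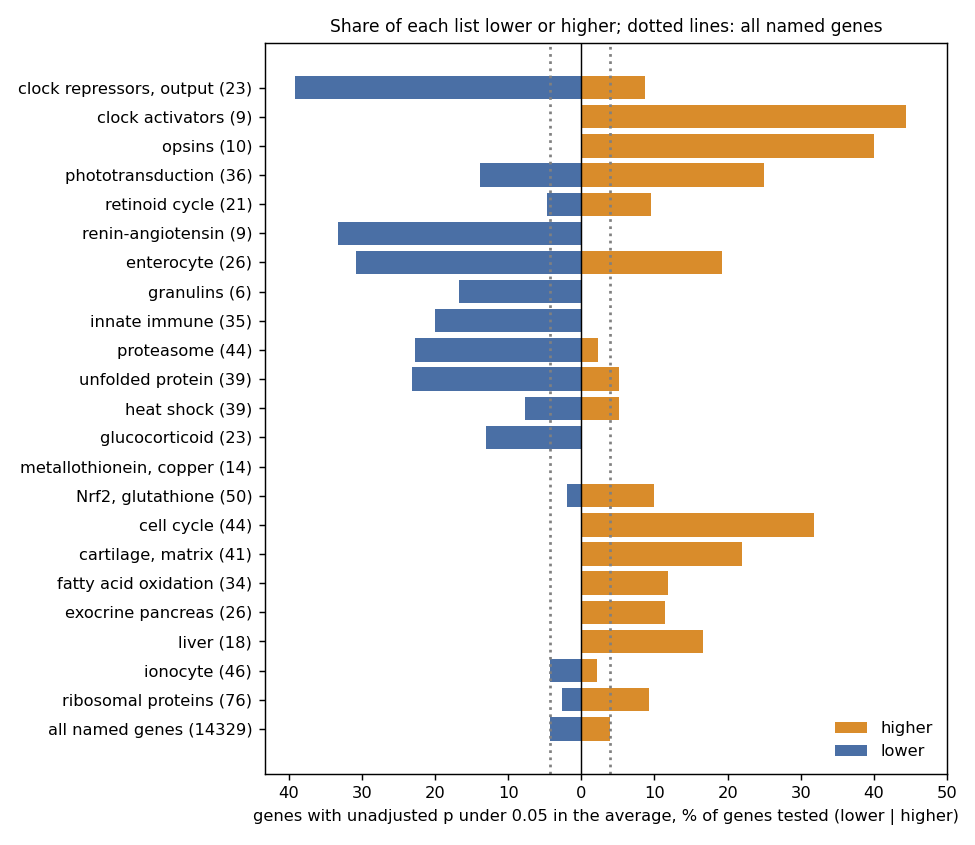
For each gene list, the share of its tested genes (number in brackets) with an unadjusted p under 0.05 in the average, in percent, with lower genes to the left of 0 and higher genes to the right. Dotted lines mark all named genes, 4.31% lower and 3.93% higher. The share of lower genes is 39.1% for clock repressors, and the share of higher genes 44.4% for clock activators and 40% for opsins. The lists were chosen with earlier results of these data known, so the shares are a description only.

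Of the lists that follow, none had a member past the threshold. For comparison, 3.93% of all named genes were higher and 4.31% lower at an unadjusted p under 0.05. Ionocyte genes, which move salts across skin and gill and are a known site of silver action in freshwater fish, had 23 of 46 higher and 23 lower, with 1 higher (2.17%) and 2 lower (4.35%) at an unadjusted p under 0.05. Cytochrome and transporter genes of xenobiotic metabolism had 2 of 20 higher (10%) and 2 lower (10%) at that p, with cyp1a at -0.12 (SE 0.10). Genes of the respiratory chain had 45 of 88 higher, with 6 higher (6.82%) and 0 lower at that p. Cholesterol synthesis had 12 of 21 higher, with 2 higher (9.52%) and 0 lower at it. For p53 targets and apoptosis 10 of 26 were higher, with 2 higher (7.69%) and 3 lower (11.5%) at that p. Exocrine pancreas genes had 17 of 26 higher, with 3 higher (11.5%) and 0 lower at that p. The ribosomal protein list had 49 of 76 higher, with 7 higher (9.21%) and 2 lower (2.63%) at it. But its mean was 0.18 on the arrays of silver RNA in Cy5 and -0.13 on those in Cy3.

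Markers of other tissues in the whole larva were compared in the same way. At an unadjusted p under 0.05, 3.93% of all named genes were higher and 4.31% lower. By that measure muscle had 4 of 25 genes higher (16%) and 0 lower, and skin epidermis 6 of 25 higher (24%) and 4 lower (16%). Liver had 3 of 18 higher (16.7%) and 0 lower, and pigment cells 1 of 15 higher (6.67%) and 0 lower. Red blood cells (15 genes) and neurons and glia (19 genes) had none below that p. By sign alone, muscle had 12 genes higher and 13 lower, with a median of 0.00 (-0.0021 before rounding). Epidermis had 16 higher and 9 lower, and liver 13 higher and 5 lower. The liver list mean was -0.07 on the arrays of silver RNA in Cy5 and 0.24 on those in Cy3. The list means ranged over the arrays from -0.27 to 0.44 for liver and from -0.30 to 0.22 for muscle. The part of tissue make-up in the results above was not tested.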

How the data were processed

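The authors' deposited log ratios of 12 2-channel arrays (43603 probes each) were taken as log2. The base is an assumption. How images were scanned, background-corrected, normalized and filtered is missing from the sources used here. Trizol RNA was labelled with cyanine dyes, per the labels' protocols. Array medians of -0.0093 to 0.015 were taken as centring by the authors. Through the platform annotation and RefSeq (GRCz12tu), 30186 probes had 1 gene symbol and 13417 had none. Log values of probes of the same gene were averaged, which gave 28497 features. Tested were the 25264 (14329 named genes and 10935 probes) that had 2 or more values among the 3 arrays of an orientation and group, in every such set.

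In limma 3.58.1 (R 4.3.3) a mean per silver group and a dye orientation term were fitted, and the average of both means was tested 2-sided with Benjamini-Hochberg adjustment over all features (threshold 0.05). The fit was tested on simulated data. The text names all called genes, the next by p to 30 in all, called members or up to 4 members of lowest p per list, and set role genes. Members and lists were chosen with earlier results of these data known. The alternatives were turned swapped arrays, other blocks, weights, normalizations, filters and probe summaries, single orientations and arrays left out. No intensities were used, so the number of arrays limits the precision.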

Additional observations from a re-analysis of the deposited data

Results flagged for a closer look

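Of 42 genes checked in 2 groups of 6 arrays each (84 groups), 7 groups had 1 array far from the other 5, by a gap large against the range of the group. Chance gives about 1 such group in 20. Among genes and probes that passed, pde6ga stood at -0.97 on AgNO3 replicate 5, against -2.04 to -1.64 on the other AgNO3 arrays, and A_15_P753176 at -1.94 on AgNPs replicate 4, against -1.18 to -0.83 on the other AgNPs arrays. The red cone opsin gene opn1lw2 stood at 2.81 on AgNPs replicate 6, against 0.69 to 1.05. The glucose carrier gene slc5a1 stood at -0.866 on AgNPs replicate 2, against -0.39 to -0.18. On AgNO3 arrays, ppp1r3c2b stood at 0.256 on replicate 6 (others 0.76 to 0.90), pcdh1g32 at 0.0609 on replicate 4 (others 0.28 to 0.37) and LOC100151335 at -0.0678 on replicate 5 (others -0.52 to -0.37). In each case the sign was that of the other arrays of the group.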

How the results depend on the processing

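Against 15 features in the average (the same 15 for the count of equal signs), 60 passed with the swapped arrays turned (none shared), 31 with quantile normalization and 23 with only features valued on all 12 arrays (all 15 shared in both), and 26 with each probe a feature. None passed by means over control samples, by the larger p of both groups, on Cy5 arrays only or on Cy3 arrays only. Leaving out 1 array gave 6 (without AgNO3 replicate 1) to 13, with 7 without AgNPs replicate 5 and 9 without AgNPs replicate 3. Without AgNPs replicates 3 to 6, 13 passed but only ace, opn1mw1 and bhlhe41 were shared, though all 15 kept their sign. Scaling to a common spread gave 16 with 9 shared. The orientation term passed for 31 features after scaling and for 32 to 83 with 1 array left out. AgNO3 minus AgNPs gave 0 to 1, the 1 being arid6 without AgNO3 replicate 4. Demanding both forms alone gave 0 throughout.

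Same-numbered samples were not treated as pairs: their deviations from group means correlated at -0.0491 to 0.0948, and 1 of 6 correlated best with its own number. These values do not show how the samples were taken. Arrays read as sharing a control sample correlated at -0.0172 to 0.0694, in deviations from means of group and orientation. With a replicate block, 24 features passed as a random block (15 shared) and 1, ace, as a fixed block without dye term.

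With the swapped arrays turned, the average of a feature valued on every array equals its orientation term in the main model. By that estimate, 9 of the 15 and 6 of the 18 genes next by p changed sign. Among the 15 these were opn1mw1 (-0.0231), guca1c (0.00, 0.0024 before rounding), si:ch73-52f24.4 (0.0661), dbpa (0.0774), pde6ga (0.0464), grna.2 (0.0327), A_15_P760451 (0.0233), A_15_P378415 (0.170) and A_15_P753176 (0.115), and among the 18 bmal1a (-0.07), cry2 (0.01), anpepb.1 (0.08), prdx1 (-0.07), fabp10a (-0.14) and dio1 (0.07). Other list and role genes changed sign too (63 of 109 and 6 of 9), among them opn1lw2 (-0.07) and ugt1a1 (-0.41), of which ugt1a1 passed (limma adjusted p = 0.0143). The causes were not tested. Of 29 settings, ace passed in 25, opn1mw1 in 24, guca1c and ciarta in 23, si:ch73-52f24.4 in 22, dbpa and pde6ga in 20, slc15a1b in 16, grna.2 in 13, tdh in 11, bhlhe41 in 9 and nr1d1 in 3. Without intensities, low signal cannot be told from small change.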

Other observations

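Genes of bile acid metabolism and of ribosome assembly, 2 lists added after values had been seen, are given as values only. In the first, 10 of 14 tested genes were higher and 4 lower in the average. The enzyme genes cyp7a1, at -0.44, and cyp8b1.1, at -0.71 (SE 0.14, below 0 on 11 of 12 arrays), which act in bile acid synthesis, were lower. The gene nr0b2a, which encodes the nuclear receptor Shp, a repressor of cyp7a1 in mammals, stood at 0.46 (SE 0.10), above 0 on all 12 arrays. None of the 3 passed in limma over all features.

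Of 54 genes of ribosome assembly, 39 were lower and 15 higher, with a median of -0.05. At an unadjusted p under 0.05, 8 were lower (14.8%, against 4.31% of all named genes) and 0 higher. The list mean was below 0 on 11 of 12 arrays, at -0.06 on the arrays of silver RNA in Cy5 and -0.06 on those in Cy3. The pseudouridine synthase gene dkc1 averaged -0.23 and was below 0 on all 12 arrays, and the nucleolar genes nop58 and nop2 averaged -0.18 and -0.25. This list did not change sign with the dye orientation, whereas the list of ribosomal proteins did.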
